A study of Mus musculus with 6 samples.

Results

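Genes of antioxidant defence, thiol chemistry and iron storage were followed in obstructed mouse kidneys that had lost c-Abl in tubule cells, against obstructed kidneys that kept it. The members were 40 genes picked by symbol for their known roles, and all 40 were among the 18849 genes of the deposited table. Kidney RNA was sequenced in 3 libraries of c-Abl knockout kidneys (Abl1 floxed on both alleles plus Ksp-Cre, labelled "c-Abl knockdown"). It was also sequenced in 3 libraries of control kidneys (c-Abl floxed on both alleles by the design text, WT by the genotype label), called floxed here. All mice were C57BL/6 males of 8 weeks, and in both groups the ureter of one kidney had been tied off for 14 days (unilateral ureteral obstruction, UUO, a model of kidney scarring), so each value compares a diseased kidney with another diseased kidney. The Ksp promoter is that of Cdh16, a cadherin of tubule epithelium, so Cre is made in tubule cells and other kidney cells keep Abl1. These kidney values do not show which tubule segments lost Abl1. The labels give "renal cells" of kidney as the material and do not say whether the libraries come from different mice; p-values therefore measure the spread between these libraries. Expression is given as FPKM (fragments scaled to gene length and to the library's mapped fragments), so levels of different genes are compared per length. No kidney without obstruction was analysed here.

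Cells remove superoxide with superoxide dismutases, which turn it into hydrogen peroxide, and remove peroxides with catalase, glutathione peroxidases and peroxiredoxins. Most glutathione peroxidases draw electrons from glutathione, and most peroxiredoxins draw them from thioredoxin. Glutathione and thioredoxin are both recharged with NADPH. Many of these genes are switched on by the transcription factor Nrf2 (Nfe2l2), which Keap1 holds in check and which binds antioxidant response elements in DNA. Ferritin stores iron in a form that does not feed radical chemistry, haem oxygenase releases iron from haem, and metallothioneins bind zinc and copper through their cysteines. Proximal tubule cells, rich in mitochondria, are a large site of this chemistry in kidney and the main source of the plasma glutathione peroxidase Gpx3.

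The libraries themselves set limits on all that follows. The spacing of low values put the depth at about 15450000 to 16550000 fragments in knockout and 16250000 to 17550000 fragments in floxed libraries. Abl1 itself averaged 12.6 ± 2.01 FPKM in knockout and 17.1 ± 1.13 FPKM in floxed kidneys (SD, n = 3 each) without overlap, which is a loose check, since loss in tubule cells leaves the Abl1 of other cells (limma adjusted p = 0.144). Knockout replicate 3 stood apart from its group: on the first principal component (61.8% of the variance) knockout replicates 1, 2 and 3 lay at 54.1, 37.4 and -7.48, and the floxed libraries at -29.0, -26.2 and -28.8. Of 13390 genes tested, 9 passed limma at an adjusted p under 0.05 (0.0672%) and 3303 had an unadjusted limma p under 0.05 (24.7%). Over all genes the median of the log2 fold changes, -0.12, moved to 0.02 with median-ratio scaling, so a member near 0 as deposited lay above most genes.

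Marker genes of the cell types in the tissue also differed between the libraries. The summed level of 10 proximal tubule markers was 2672, 2376 and 669.6 FPKM in knockout replicates 1, 2 and 3, against 459, 644.2 and 733.7 FPKM in floxed replicates 1, 2 and 3. By this sum knockout replicate 3 lay within the floxed range, and knockout replicates 1 and 2 lay far above it. Slc34a1 weighed most in the sum (1563, 1464 and 324.7 FPKM in knockout replicates 1, 2 and 3). For 5 of the 10 markers every knockout library, replicate 3 included, lay above every floxed library. At an unadjusted limma p under 0.05, 8 of the 10 markers were higher. The summed level of 5 thick ascending limb markers spanned 773.2 to 1282 FPKM in knockout and 520.6 to 724.3 FPKM in floxed libraries. The 10 macrophage markers summed to 700.5 to 1344 FPKM in knockout and 1765 to 2598 FPKM in floxed libraries, all 10 lower at an unadjusted limma p under 0.05. The 8 fibroblast markers summed to 101.5 to 349.8 FPKM in knockout and 543.7 to 686.9 FPKM in floxed libraries, with 7 of 8 lower by that measure. For these 4 lists no marker was at 0 in every library. In RNA from mixed kidney cells, fewer cells of a type and less RNA per cell cannot be told apart. The part of these shifts in the values below was not tested.

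**Figure D1:**
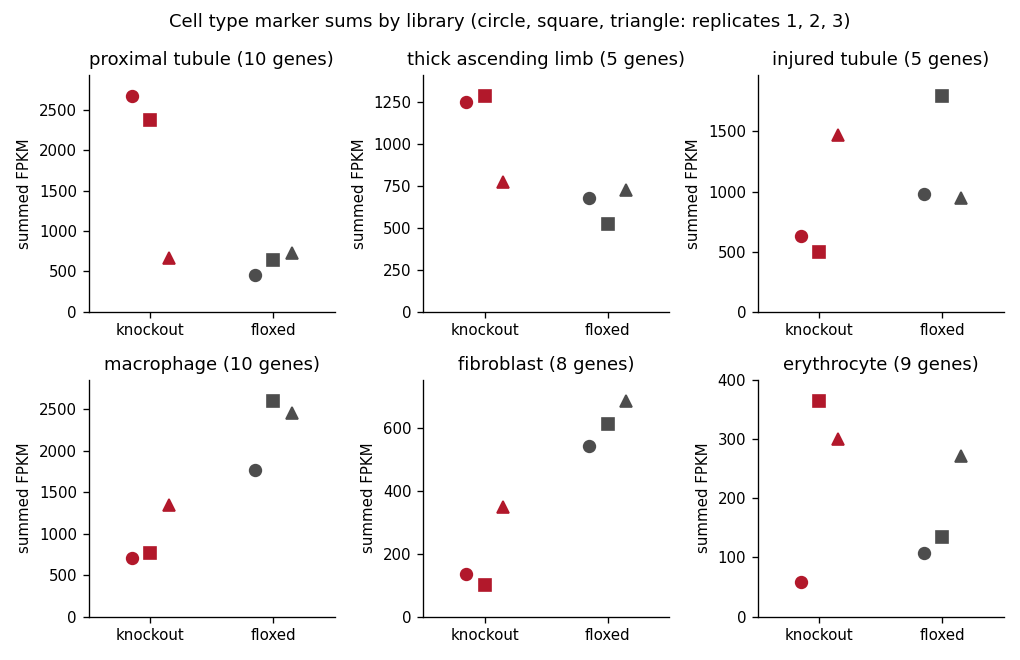
Summed FPKM of marker genes per cell type (vertical axis) in each knockout and floxed library, with symbols for replicates 1, 2 and 3. For proximal tubule, the knockout sums were 2672, 2376 and 669.6 FPKM in replicates 1, 2 and 3, the last of them inside the floxed range of 459 to 733.7 FPKM, while the macrophage and fibroblast sums of all knockout libraries lay below every floxed library.

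Promoter sequence is shown for members of both kinds of known control, the antioxidant response element of Nrf2 targets and the metal response element of metallothioneins. The RefSeq windows (GRCm38.p6, 250 bases before to 50 after the annotated start) were searched on both strands for the antioxidant response core TGACNNNGC and the metal response core TGCACNC or TGCGCNC. A window was at hand for 35 of the 40 members. The antioxidant core was found for 11 of them (31.4%), against 14.0% of all 27025 genes with a window, and the metal core for 9 (25.7%), against 28.2% of all genes. Nqo1, Gpx8 and Gpx7, the members with the smallest limma p, had no antioxidant core within this window. Capitals mark the antioxidant core in Srxn1 (chr2:152105274-152105573, plus strand) and Sod1 (chr16:90220512-90220811, plus strand), and the metal core in Mt1 (chr8:94178839-94179138, plus strand) and Mt2 (chr8:94172368-94172667, plus strand). A match describes letters and is not a bound site.
Srxn1: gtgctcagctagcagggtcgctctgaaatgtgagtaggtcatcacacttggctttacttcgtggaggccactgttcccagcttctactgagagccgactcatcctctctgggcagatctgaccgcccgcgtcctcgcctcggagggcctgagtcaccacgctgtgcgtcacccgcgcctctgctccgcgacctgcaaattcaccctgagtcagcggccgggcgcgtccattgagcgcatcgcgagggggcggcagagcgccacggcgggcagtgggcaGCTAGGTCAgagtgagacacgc
Sod1: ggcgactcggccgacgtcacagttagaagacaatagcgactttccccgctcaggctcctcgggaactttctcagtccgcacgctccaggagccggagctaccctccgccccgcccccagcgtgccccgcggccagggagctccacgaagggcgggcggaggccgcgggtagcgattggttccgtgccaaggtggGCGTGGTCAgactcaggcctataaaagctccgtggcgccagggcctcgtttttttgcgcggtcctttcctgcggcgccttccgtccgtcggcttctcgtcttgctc
Mt1: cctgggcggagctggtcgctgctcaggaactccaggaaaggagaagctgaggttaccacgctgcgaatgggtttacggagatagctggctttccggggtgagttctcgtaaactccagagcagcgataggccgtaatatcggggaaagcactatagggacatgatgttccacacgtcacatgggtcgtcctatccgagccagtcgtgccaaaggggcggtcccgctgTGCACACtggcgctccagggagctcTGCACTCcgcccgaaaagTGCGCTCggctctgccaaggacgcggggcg
Mt2: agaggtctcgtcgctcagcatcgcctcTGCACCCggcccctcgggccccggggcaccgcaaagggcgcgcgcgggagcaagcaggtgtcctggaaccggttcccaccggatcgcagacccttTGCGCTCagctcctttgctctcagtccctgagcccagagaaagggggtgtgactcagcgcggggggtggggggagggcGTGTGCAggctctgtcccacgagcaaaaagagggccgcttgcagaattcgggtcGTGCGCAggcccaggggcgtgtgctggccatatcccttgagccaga
The Mt1 window held 3 metal cores and the Mt2 window 4, and Mt2 also held 1 antioxidant core.

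Most of the 40 genes overlapped between the groups, and several were high in some knockout libraries only. Of the 38 members tested, 0 passed limma over all genes (9 of 13390 genes did, 0.0672%). At an unadjusted limma p under 0.05, 5 members were higher in knockout kidneys (13.2%, against 8.38% of all genes) and 2 were lower (5.26%, against 16.3% of all genes). The knockout and floxed libraries did not overlap for 6 higher members (15.8%, against 10.0% of all genes) and 2 lower members (5.26%, against 21.7%); of all genes 31.7% did not overlap in either direction. As a difference of knockout minus floxed in log2(FPKM + 1), the member median was 0.26, beside -0.12 for all genes, and 29 of 38 members (76.3%) were above 0, beside 34.6% of all genes. Within single knockout libraries the member median stood 0.53, 0.15 and 0.09 above the floxed mean in replicates 1, 2 and 3, where the median of all genes was -0.23, -0.12 and -0.03. The remaining pair, Gpx2 and Slc7a11, had too little expression to be tested.

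**Figure D2:**
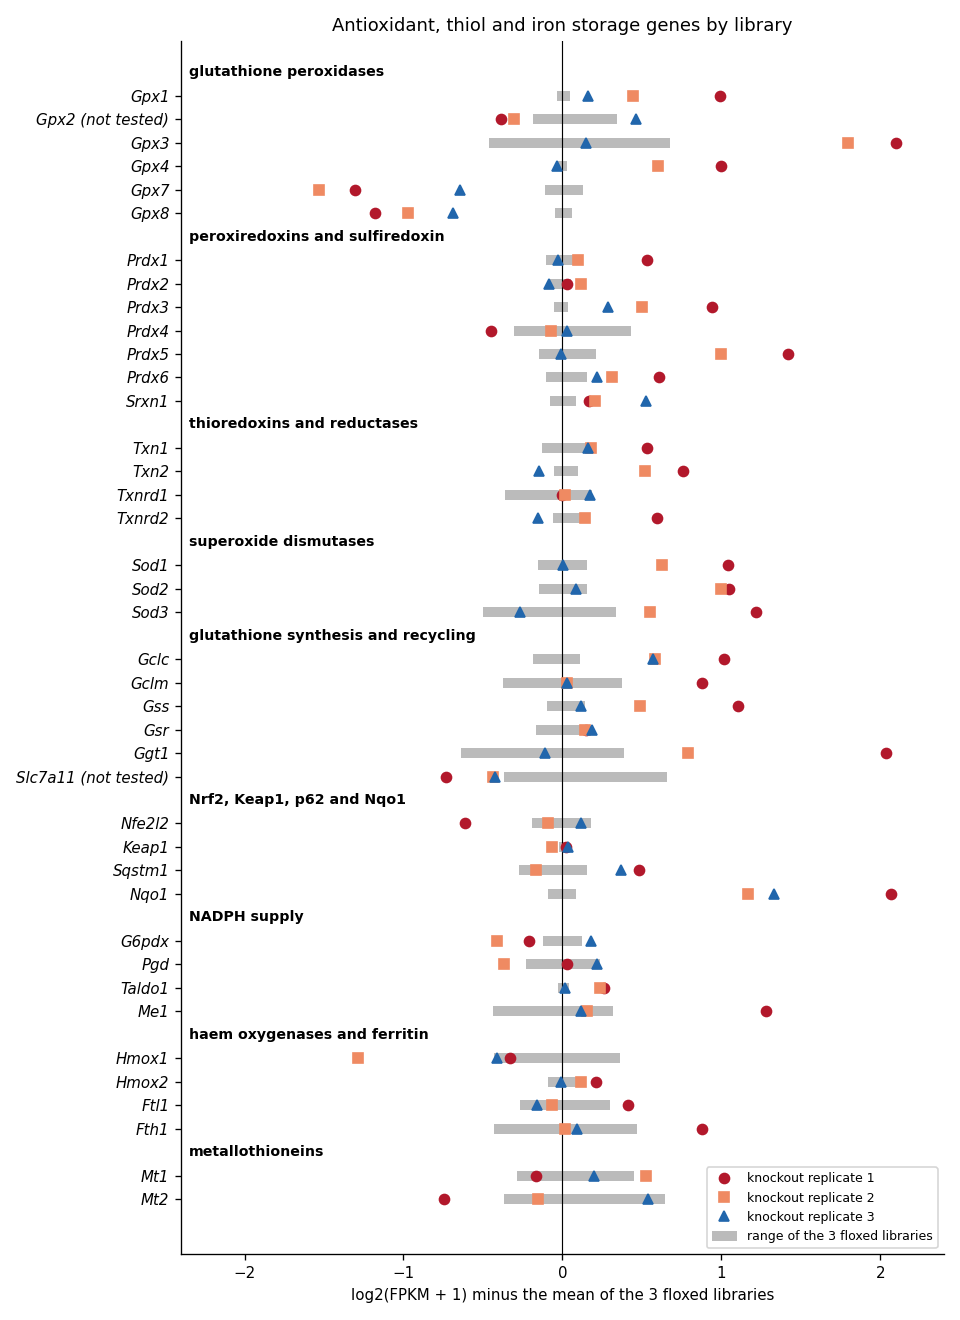
Each row is a member, grouped by role; the horizontal axis is log2(FPKM + 1) minus the mean of the 3 floxed libraries, symbols are the knockout libraries and grey bars span the floxed libraries. Nqo1, Gclc, Gpx7 and Gpx8 lay outside the grey bar in all 3 knockout libraries, while Gpx3, Gpx4, Sod1, Sod2 and Prdx5 did so in knockout replicates 1 and 2 only.

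Nqo1, the quinone reductase that serves as the standard readout of Nrf2 activity, showed the largest fold change of the members tested. Its level was 45.28, 23.79 and 26.77 FPKM in knockout replicates 1, 2 and 3, against 10.08, 9.39 and 10.72 FPKM in floxed replicates 1, 2 and 3. Every knockout library was more than the highest floxed library, replicate 3 included, and the mean was 31.9 ± 11.6 FPKM in knockout and 10.1 ± 0.665 FPKM in floxed kidneys, a 3.17-fold difference. The log2 fold change of 1.52 (SE 0.235) came close to the threshold without passing it (limma adjusted p = 0.0547). Its range over the fits that left out 1 library each was 1.25 to 1.70. For each member without overlap a two-sided exact permutation test gave p = 0.1, and 3 against 3 libraries cannot give less.

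The genes that steer this response overlapped between the groups. Nfe2l2, which encodes Nrf2, read 52.49, 75.76 and 87.83 FPKM in knockout and 70.6, 81.69 and 91.81 FPKM in floxed replicates 1, 2 and 3, with overlapping groups (log2 fold change -0.20, 95% interval -0.69 to 0.30, sign turned to 0.012 without knockout replicate 1). Keap1, its inhibitor, was the steadiest member, with 18.36, 17.18 and 18.48 FPKM in knockout and 17.77, 18.59 and 17.73 FPKM in floxed replicates 1, 2 and 3. The interval of its log2 fold change ran from -0.25 to 0.24, and its sign turned with median-ratio and quantile scaling (0.15 and 0.088). Sqstm1 (p62), an autophagy receptor that binds Keap1, averaged 206 ± 46.3 FPKM in knockout and 174 ± 27.2 FPKM in floxed kidneys, with overlap.

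Glutathione synthesis was led by Gclc, the catalytic subunit of the rate-limiting enzyme. Gclc read 113.78, 84.05 and 83.13 FPKM in knockout and 48.85, 60.23 and 58.65 FPKM in floxed replicates 1, 2 and 3. The groups did not overlap, and replicate 3 was as high as replicate 2 (1.67-fold in mean FPKM, log2 fold change 0.72, SE 0.164, limma adjusted p = 0.0764). Its partner Gclm, the modifier subunit, read 128.04, 70.84 and 70.79 FPKM in knockout and 53.33, 69.06 and 90.38 FPKM in floxed replicates 1, 2 and 3. Only knockout replicate 1 lay above the floxed range of Gclm, so the subunits of 1 enzyme were not alike in these libraries (limma adjusted p = 0.507 for Gclm); the difference between them was not tested.

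Of the other glutathione genes, Gss and Ggt1 were high in knockout replicates 1 and 2, Gsr was level and Slc7a11 was scarce. Gss, glutathione synthetase, averaged 149 ± 53.2 FPKM in knockout and 96.6 ± 8.78 FPKM in floxed kidneys, with replicate 3 (104.39 FPKM) inside the floxed range of 89.84 to 106.54 FPKM. Ggt1, the brush-border enzyme that breaks glutathione down outside the cell, read 383.4, 161.16 and 85.94 FPKM in knockout and 59.29, 110.5 and 122.03 FPKM in floxed replicates 1, 2 and 3. Its spread was the widest of this group, and its 2.16-fold mean difference did not pass (log2 fold change 0.90, SE 0.540, limma adjusted p = 0.327). Gsr, glutathione reductase, was nearly level at 48.17, 48.01 and 49.52 FPKM in knockout and 43.32, 48.77 and 38.55 FPKM in floxed replicates 1, 2 and 3. Slc7a11, the cystine importer that is a known Nrf2 target, was scarcely expressed, at 0.08, 0.33 and 0.34 FPKM in knockout and 0.47, 1.84 and 0.39 FPKM in floxed replicates 1, 2 and 3. Its groups did not overlap, with knockout below, but at these levels it was left out of the test.

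**Figure D3:**
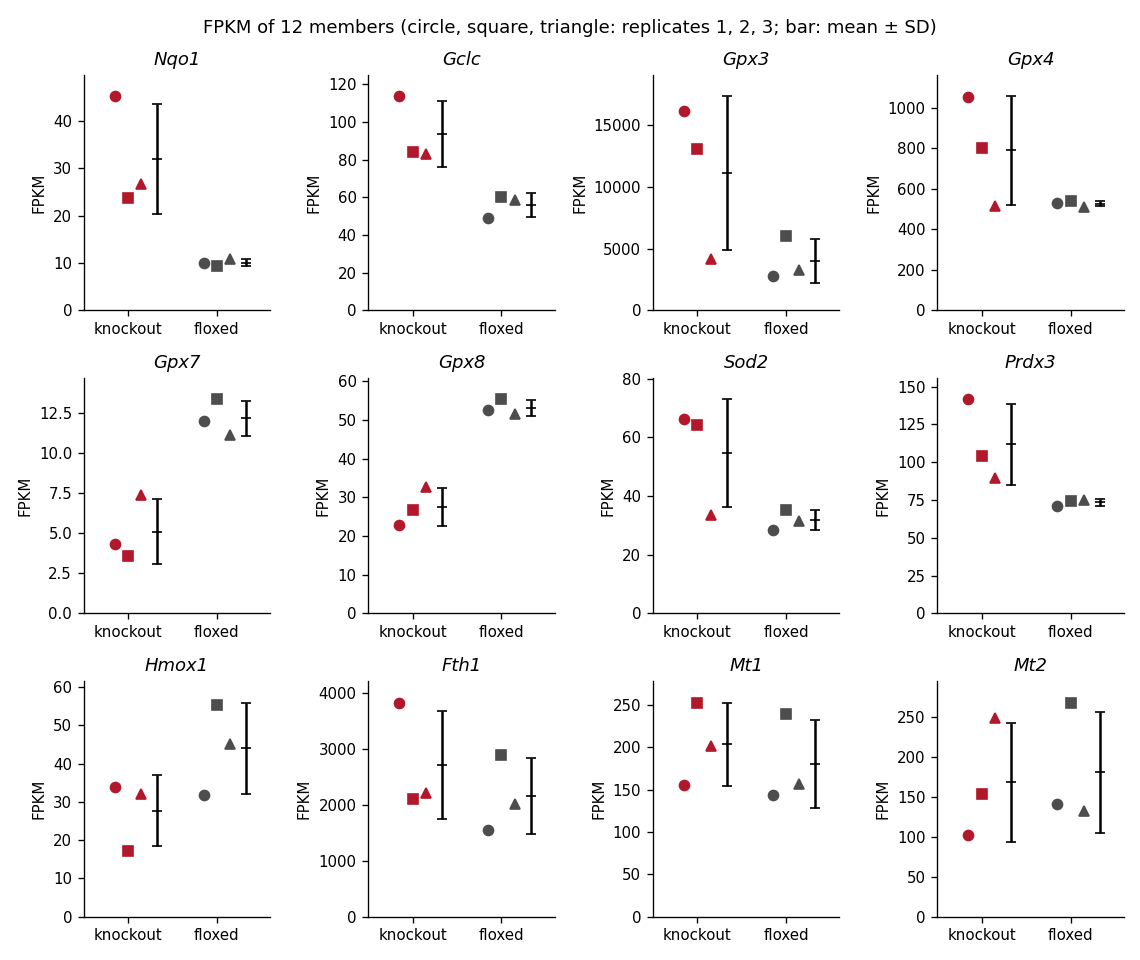
FPKM (vertical axis, from 0) of 12 members in each knockout and floxed library, with mean ± SD over 3 libraries beside the points. Nqo1, Gclc and Prdx3 were higher and Gpx7 and Gpx8 lower in all knockout libraries, Gpx3, Gpx4 and Sod2 were high in knockout replicates 1 and 2 only, and Hmox1, Fth1, Mt1 and Mt2 overlapped between the groups.

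The glutathione peroxidases did not move together. Gpx8 and Gpx7, peroxidases of the endoplasmic reticulum that lack selenocysteine and take part in oxidative protein folding, were the only tested members with non-overlapping groups and lower knockout values. Gpx8 read 22.94, 26.64 and 32.63 FPKM in knockout and 52.68, 55.33 and 51.43 FPKM in floxed replicates 1, 2 and 3. The knockout mean was 0.516 times the floxed mean (log2 fold change -0.94, SE 0.146, limma adjusted p = 0.0547). Gpx7 read 4.31, 3.55 and 7.39 FPKM in knockout and 12, 13.34 and 11.15 FPKM in floxed replicates 1, 2 and 3. Its mean was 0.418 times the floxed mean (log2 fold change -1.16, SE 0.234, limma adjusted p = 0.0651), and knockout replicate 3 was the highest knockout library for both genes. The fibroblast marker sums, given above, were lower in the same libraries and in the same order of replicate 3 over the others; their part in Gpx7 and Gpx8 was not tested. The Gpx8 gene overlaps Cdc20b, which was listed at 0.05 FPKM or less in every library.

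Gpx3, Gpx1 and Gpx4, which carry selenocysteine, had higher knockout means. Gpx3, the secreted peroxidase of plasma, was the most abundant member and ranked 3 among all genes in both groups by mean FPKM. It read 16142.57, 13109.87 and 4169.87 FPKM in knockout and 2736.55, 6013.7 and 3243.39 FPKM in floxed replicates 1, 2 and 3. Knockout replicates 1 and 2 were above every floxed library and replicate 3 was inside the floxed range, so the 2.79-fold mean difference came with a large error (log2 fold change 1.35, SE 0.583, limma adjusted p = 0.210). The Gpx3 transcript alone made up 2.92%, 2.54% and 0.847% of all summed FPKM in knockout replicates 1, 2 and 3, and 0.548%, 1.18% and 0.662% in floxed replicates 1, 2 and 3. The summed level of the proximal tubule markers given above had the same split, with knockout replicates 1 and 2 above the rest. Single markers did not all have it, and their part in Gpx3 was not tested.

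Gpx1, the cytosolic peroxidase, read 2294.8, 1571.52 and 1289.43 FPKM in knockout and 1142.85, 1195.24 and 1126.43 FPKM in floxed replicates 1, 2 and 3. The groups did not overlap, though replicate 3 was only just above the highest floxed library (1.49-fold in means, log2 fold change 0.53, SE 0.246, limma adjusted p = 0.231). Gpx4, which repairs lipid peroxides in membranes and guards against ferroptosis, read 1051.59, 801.06 and 515.06 FPKM in knockout and 531.62, 537.15 and 511.94 FPKM in floxed replicates 1, 2 and 3. Here replicate 3 was inside the narrow floxed range (log2 fold change 0.52, SE 0.264, limma adjusted p = 0.260). Gpx2, a peroxidase of gut epithelium, was at or below 0.8 FPKM in every library and was not tested.

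Among peroxiredoxins, the mitochondrial members had the largest log2 fold changes. Prdx3, found in the mitochondrial matrix, read 141.56, 104.22 and 89.54 FPKM in knockout and 70.72, 74.3 and 75.16 FPKM in floxed replicates 1, 2 and 3. The groups did not overlap (log2 fold change 0.57, SE 0.177, limma adjusted p = 0.123). Prdx5, of mitochondria and peroxisomes, read 1041.33, 777.48 and 387.45 FPKM in knockout and 351.03, 451.15 and 371.8 FPKM in floxed replicates 1, 2 and 3. Replicate 3 lay inside the floxed range, and the 1.88-fold mean difference did not pass (limma adjusted p = 0.217). Prdx6, which also acts on phospholipid peroxides, averaged 110 ± 16.2 FPKM in knockout and 84.0 ± 8.25 FPKM in floxed kidneys. Its lowest knockout library, replicate 3 at 97.41 FPKM, was just above the highest floxed library at 93.39 FPKM (limma adjusted p = 0.178).

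Prdx1, Prdx2 and Prdx4 overlapped between the groups. Prdx1 averaged 559 ± 118 FPKM in knockout and 480 ± 31.5 FPKM in floxed kidneys, and Prdx2, which is abundant in red cells, 196 ± 14.0 FPKM in knockout and 193 ± 9.37 FPKM in floxed kidneys. The interval of the Prdx2 log2 fold change, -0.26 to 0.31, was among the narrowest of the members, and its sign turned with quantile and TPM scaling. Prdx4, of the endoplasmic reticulum, averaged 33.1 ± 5.64 FPKM in knockout and 37.8 ± 10.8 FPKM in floxed kidneys. Unlike Gpx7 and Gpx8 of the same compartment, its groups overlapped. Srxn1, the sulfiredoxin that restores over-oxidised peroxiredoxins and a known Nrf2 target, read 26.0, 26.71 and 33.5 FPKM in knockout and 21.78, 24.41 and 22.87 FPKM in floxed replicates 1, 2 and 3. Of the 6 higher members without overlap it was the only one whose highest knockout library was replicate 3 (log2 fold change 0.30, SE 0.133, limma adjusted p = 0.217).

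The thioredoxin genes overlapped between the groups. Txn1, cytosolic thioredoxin, averaged 339 ± 50.9 FPKM in knockout and 276 ± 30.4 FPKM in floxed kidneys. Mitochondrial Txn2 averaged 145 ± 43.6 FPKM in knockout and 108 ± 6.54 FPKM in floxed kidneys, with knockout replicate 3 (97.18 FPKM) below every floxed library. Txnrd1, the cytosolic reductase and a known Nrf2 target, averaged 47.3 ± 3.30 FPKM in knockout and 45.9 ± 9.5 FPKM in floxed kidneys, and its mitochondrial relative Txnrd2 12.2 ± 3.52 FPKM in knockout and 10.3 ± 0.777 FPKM in floxed kidneys. None of the 4 had non-overlapping groups (limma adjusted p of 0.295 to 0.833).

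The superoxide dismutases were high in knockout replicates 1 and 2 and near the floxed level in replicate 3. Sod2, the mitochondrial manganese enzyme, read 66.36, 64.1 and 33.61 FPKM in knockout and 28.41, 35.21 and 31.41 FPKM in floxed replicates 1, 2 and 3. This gave a log2 fold change of 0.71 (SE 0.264, limma adjusted p = 0.166). Cytosolic Sod1 averaged 492 ± 169 FPKM in knockout and 321 ± 34.5 FPKM in floxed kidneys, with replicate 3 at 321.65 FPKM. Ccs, the chaperone that loads copper into Sod1, read 122.2, 114.3 and 60.33 FPKM in knockout and 57.5, 56.03 and 53.26 FPKM in floxed replicates 1, 2 and 3, without overlap (limma adjusted p = 0.149). Extracellular Sod3 averaged 179 ± 87.7 FPKM in knockout and 119 ± 33.6 FPKM in floxed kidneys, and its replicate 3 (96.24 FPKM) was inside the floxed range.

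The 4 members of NADPH supply and the pentose phosphate pathway overlapped between the groups. G6pdx and Pgd, the oxidative steps of the pentose phosphate pathway, averaged 19.4 ± 4.35 and 71.7 ± 14.4 FPKM in knockout and 21.3 ± 1.92 and 73.3 ± 11.9 FPKM in floxed kidneys. Their log2 fold changes of -0.15 and -0.039 turned to 0.0057 and 0.12 with median-ratio scaling. Taldo1, of the pathway's non-oxidative arm, averaged 185 ± 16.5 FPKM in knockout and 164 ± 4.03 FPKM in floxed kidneys (log2 fold change 0.17, and -0.026 with quantile scaling). Malic enzyme Me1 averaged 100.3 ± 50.5 FPKM in knockout and 66.3 ± 17.0 FPKM in floxed kidneys, and only knockout replicate 1, at 158.69 FPKM, lay above the floxed range.

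Hmox1, the inducible haem oxygenase and another known Nrf2 target, had a lower knockout mean, unlike Nqo1. It read 33.97, 17.01 and 32.06 FPKM in knockout and 31.66, 55.41 and 45.02 FPKM in floxed replicates 1, 2 and 3. Floxed replicate 1 was below knockout replicates 1 and 3, so the groups overlapped, and -0.68 on the log2 scale (SE 0.306) missed the threshold (limma adjusted p = 0.225). Hmox1 is abundant in macrophages that clear haem, and the macrophage marker sums given above were lower in all knockout libraries; their part was not tested. The constitutive Hmox2 averaged 53.2 ± 4.15 FPKM in knockout and 49.3 ± 3.12 FPKM in floxed kidneys. The Hmox2 gene overlaps Cdip1 in the annotation.

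The ferritin chains were among the most abundant transcripts of the kidney and varied mainly within groups. Fth1, the heavy chain that oxidises iron for storage, read 3829.99, 2103.88 and 2219.03 FPKM in knockout and 1547.38, 2886.14 and 2018.62 FPKM in floxed replicates 1, 2 and 3. Ftl1, the light chain that helps the mineral core form, read 2647.41, 1901.88 and 1777.5 FPKM in knockout and 1653.79, 2450.49 and 1937.19 FPKM in floxed replicates 1, 2 and 3. Both were highest in knockout replicate 1, and apart from it the knockout libraries lay inside the floxed range. Per length, the Fth1 to Ftl1 ratio was 1.45, 1.11 and 1.25 in knockout and 0.936, 1.18 and 1.04 in floxed replicates 1, 2 and 3, again with overlap. The log2 fold changes were 0.33 (95% interval -0.48 to 1.14) for Fth1 and 0.063 (95% interval -0.54 to 0.67) for Ftl1. Ftl1, Gpx4 and Prdx2 each have 2 pseudogenes of their name in the annotation, and Gpx2, Prdx1 and Prdx6 have 1 each; reads shared with them cannot be separated in these values.

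Metallothioneins showed no common order by genotype. Mt1 read 156, 252.99 and 201.43 FPKM in knockout and 143.46, 239.57 and 157 FPKM in floxed replicates 1, 2 and 3. Mt2 read 101.75, 153.71 and 248.96 FPKM in knockout and 140.97, 268.14 and 132.53 FPKM in floxed replicates 1, 2 and 3. Mt2 was highest in knockout replicate 3 and floxed replicate 2, Mt1 in replicate 2 of both groups, and the intervals of the log2 fold changes, -0.41 to 0.78 for Mt1 and -1.04 to 0.80 for Mt2, were wide. The neighbours also differed in their balance: the Mt2 to Mt1 ratio was 0.652, 0.608 and 1.24 in knockout and 0.983, 1.12 and 0.844 in floxed replicates 1, 2 and 3. The sign of Mt1 turned with quantile scaling (-0.031), and that of Mt2 turned with median-ratio scaling (0.039).

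**Figure D4:**
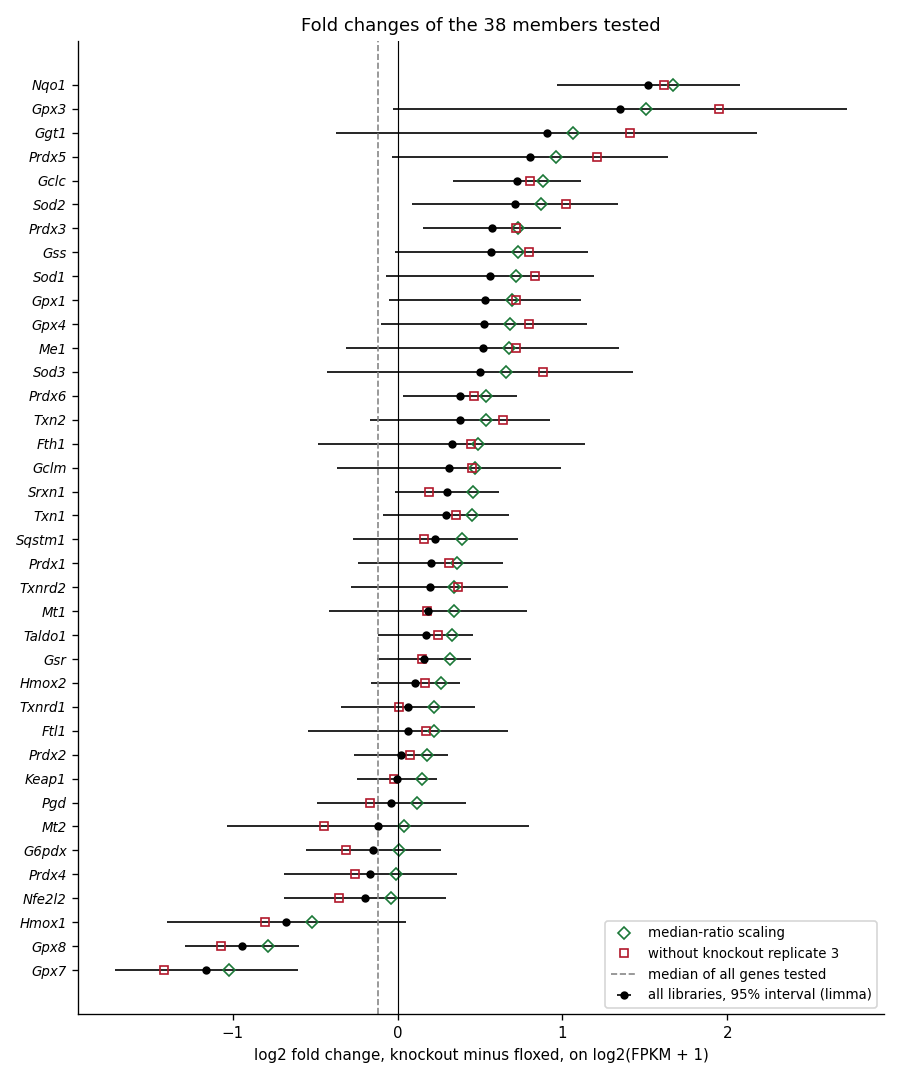
Log2 fold changes (horizontal axis, knockout minus floxed on log2(FPKM + 1)) of the 38 members tested, with 95% intervals from limma as bars; diamonds use median-ratio scaling and squares leave out knockout replicate 3. Nqo1 at 1.52 and Gpx7 at -1.16 are the extremes, and leaving out knockout replicate 3 moved Gpx3 to 1.95 and Ggt1 to 1.41.

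Leaving out knockout replicate 3 changed how many members passed. Without it 13 of the 38 members passed limma over all genes, of which 24.4% passed: 11 higher (28.9%, against 9.02% of all genes) and 2 lower (5.26%, against 15.4%). The higher members were Nqo1, Gclc, Gss, Gpx1, Gpx3, Gpx4, Prdx3, Prdx5, Txn2, Sod1 and Sod2, and the lower were Gpx7 and Gpx8. Gpx3 then had a log2 fold change of 1.95 (limma adjusted p = 0.0166) and Prdx5 of 1.21 (limma adjusted p = 0.00857). The library was singled out because it lay near the floxed libraries, so these counts show how much rested on 1 library and add no support. In replicate 3 alone, Nqo1, Gclc, Gpx7 and Gpx8 lay 1.33, 0.57, -0.65 and -0.69 from the floxed mean on the log2 scale. These are members without overlap (31.7% of all genes had none), so a shared direction of the knockout libraries came with that choice. Of the other tested members without overlap, Gpx1, Prdx6 and Prdx3 in replicate 3 lay 0.16, 0.22 and 0.28 above the floxed mean. Srxn1 lay 0.52 above it in replicate 3 and 0.17 and 0.21 above it in replicates 1 and 2. The scale of the values also moved the counts: with median-ratio scaling 9 members were higher and 2 lower at an unadjusted limma p under 0.05 (13.5% and 11.3% of all genes), and with TPM scaling 8 were higher and 3 lower (7.23% and 16.1% of all genes). When limma weighted the libraries by their spread, 15 members passed, as did 36.4% of all genes; those weights counted knockout replicate 3 least (0.274).

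Other genes of the same chemistry were read from 8 lists drawn up by role, none with a gene past limma over all genes. The counts at an unadjusted limma p under 0.05 stand against 8.38% of all genes higher and 16.3% lower, with a median of -0.12. From each list up to 4 genes with the smallest p were named, so a lack of overlap in them came with that choice. Of all genes 10.0% were higher without overlap and 21.7% lower. In the list of glutathione cycle, glutaredoxin and thiol repair genes, 9 of 29 tested were higher and 3 lower at an unadjusted limma p under 0.05, with a median of 0.42. Oplah, which recycles oxoproline, read 65.83, 56.17 and 55.11 FPKM in knockout and 34.54, 27.21 and 30.57 FPKM in floxed replicates 1, 2 and 3 (limma adjusted p = 0.0547). Slc7a9 and Slc3a1, the subunits of the tubular cystine transporter, averaged 67.7 ± 14.7 and 177 ± 65.3 FPKM in knockout and 29.1 ± 1.22 and 86.3 ± 10.4 FPKM in floxed kidneys. For Oplah, Slc7a9 and Slc3a1, named by that rule, every knockout library lay above every floxed library. The scarce Slc7a11, which was not tested, lay below by a narrow margin (at most 0.34 FPKM in knockout and at least 0.39 FPKM in floxed libraries). Msrb3, a methionine sulfoxide reductase, averaged 3.93 ± 1.23 FPKM in knockout and 9.81 ± 2.38 FPKM in floxed kidneys.

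More of the oxidant-producing enzymes were lower than higher in knockout kidneys. Of 16 tested, 6 were lower and 2 higher at an unadjusted limma p under 0.05, with a median of -0.29, against 16.3% lower and 8.38% higher among all genes. Subunits of the phagocyte NADPH oxidase were among the lower genes. Cybb, its catalytic subunit, read 6.91, 9.19 and 13.59 FPKM in knockout and 18.96, 18.79 and 17.96 FPKM in floxed replicates 1, 2 and 3. Ncf1 and Ncf4 averaged 11.8 ± 4.47 and 8.38 ± 3.62 FPKM in knockout and 23.4 ± 5.69 and 16.6 ± 3.56 FPKM in floxed kidneys (limma adjusted p of 0.0895 to 0.116 for the 3 genes). The macrophage markers were lower in the same libraries, and their part was not tested. Nox4, the oxidase of tubule cells, named here after its values were seen, read 70.15, 61.25 and 24.71 FPKM in knockout and 22.99, 27.28 and 22.41 FPKM in floxed replicates 1, 2 and 3.

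Iron and haem genes had a median near 0 (0.012), with 6 of 30 tested higher and 2 lower at an unadjusted limma p under 0.05 (8.38% and 16.3% of all genes). Aco1, which doubles as an iron sensor that binds ferritin mRNA, read 72.66, 67.19 and 51.71 FPKM in knockout and 32.47, 35.9 and 39.74 FPKM in floxed replicates 1, 2 and 3 (limma adjusted p = 0.0651). Fech, which inserts iron into haem, averaged 32.2 ± 5.23 FPKM in knockout and 21.6 ± 1.01 FPKM in floxed kidneys, also without overlap. Blvrb, a biliverdin reductase, averaged 39.96 ± 9.57 FPKM in knockout and 26.0 ± 5.59 FPKM in floxed kidneys with overlap. Lrp1, a receptor that takes up haem bound to haemopexin among many ligands, averaged 6.32 ± 3.47 FPKM in knockout and 14.7 ± 2.01 FPKM in floxed kidneys.

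Catalase, which breaks down hydrogen peroxide in peroxisomes, was higher in each knockout library. Cat read 350.6, 254.2 and 141.6 FPKM in knockout and 96.36, 110.6 and 124.1 FPKM in floxed replicates 1, 2 and 3, without overlap (log2 fold change 1.08, limma adjusted p = 0.115). In its list of catalase and selenoprotein genes 3 of 19 tested were higher and 2 lower at an unadjusted limma p under 0.05 (8.38% and 16.3% of all genes), with a median of 0.042. Sephs2, which makes the selenium donor for selenocysteine, averaged 110 ± 37.2 FPKM in knockout and 50.5 ± 3.20 FPKM in floxed kidneys (limma adjusted p = 0.0723). The selenoprotein genes Selenon and Selenom averaged 6.39 ± 3.01 and 35.9 ± 2.56 FPKM in knockout and 16.1 ± 2.0 and 46.7 ± 4.85 FPKM in floxed kidneys, without overlap and with knockout lower.

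In the remaining lists the named genes were among those with the smallest p, and the counts again stand against 8.38% of all genes higher and 16.3% lower. Among other NADPH-supplying enzymes 5 of 14 were higher and 1 lower at an unadjusted limma p under 0.05 (median 0.095), led by the folate enzyme Aldh1l1 (131 ± 56.0 FPKM in knockout and 48.6 ± 5.95 FPKM in floxed kidneys), the mitochondrial malic enzyme Me3 (17.3 ± 4.41 FPKM in knockout and 9.10 ± 1.88 FPKM in floxed kidneys) and the NAD kinase Nadk2 (17.2 ± 3.26 FPKM in knockout and 10.2 ± 1.35 FPKM in floxed kidneys). Mthfd2 was lower, at 6.33 ± 0.479 FPKM in knockout and 9.75 ± 1.1 FPKM in floxed kidneys. Among Nrf2 partners and regulators 0 of 14 were higher and 1 was lower (median -0.20): Syvn1, a ubiquitin ligase that acts on Nrf2, averaged 22.3 ± 1.96 FPKM in knockout and 31.0 ± 1.12 FPKM in floxed kidneys. Mafk, a small Maf partner of Nrf2, averaged 17.1 ± 1.04 FPKM in knockout and 20.2 ± 1.35 FPKM in floxed kidneys without overlap. Trim21 averaged 5.93 ± 0.457 FPKM in knockout and 8.15 ± 1.90 FPKM in floxed kidneys. Of lipid peroxidation and ferroptosis genes 3 of 14 were higher and 0 lower (median 0.092), among them Por, which passes electrons from NADPH to cytochrome P450, at 54.9 ± 11.1 FPKM in knockout and 32.0 ± 6.65 FPKM in floxed kidneys, and the mitochondrial iron-sulfur protein Cisd1 at 174 ± 78.7 FPKM in knockout and 72.8 ± 4.59 FPKM in floxed kidneys. Of zinc and copper genes 2 of 10 were higher and 0 lower (median -0.039): the copper importer Slc31a1 averaged 37.9 ± 4.99 FPKM in knockout and 26.4 ± 2.02 FPKM in floxed kidneys, and Ccs is given above.

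**Figure D5:**
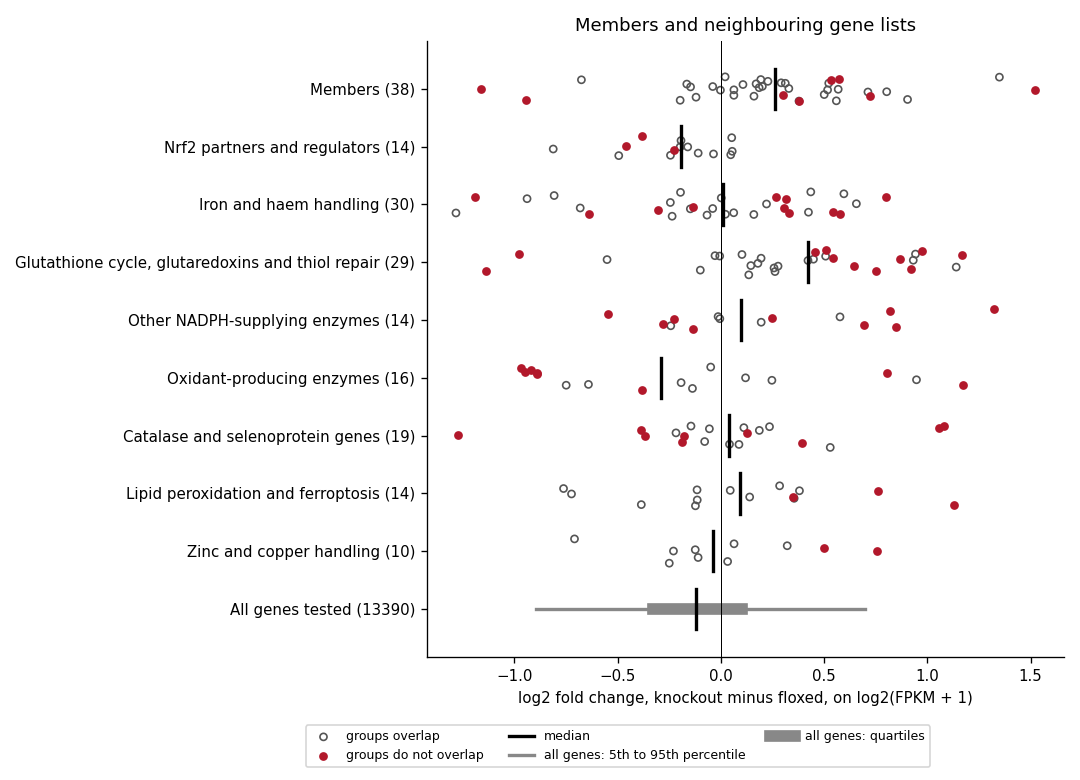
Log2 fold changes (horizontal axis, knockout minus floxed on log2(FPKM + 1)) of the members and of 8 further gene lists, 1 point per gene tested, filled where the knockout and floxed libraries did not overlap, with medians as black bars; the grey bars are all 13390 genes. The medians were 0.26 for the members, 0.42 for glutathione cycle and thiol repair genes, -0.29 for oxidant-producing enzymes and -0.12 for all genes.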

How the data were processed

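The authors' deposited table gives FPKM for each gene in each library, with 2 decimals. The submitters' processing notes name mm9. Which aligner, counter, annotation, strand setting and filters were used is not given in the sources used here. RNA was taken with TRIzol and made into Illumina libraries, per the labels' protocols. FPKM is relative to all fragments of a library, so abundant genes can move the values of others.

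Groups and replicate numbers came from the sample titles. A gene was tested when 3 or more of the 6 libraries had FPKM of 1 or higher (13390 genes), as log2(FPKM + 1) with limma 3.58.1 in R 4.3.3 (with a trend of variance on mean level, no covariate, two-sided, Benjamini-Hochberg adjustment at 0.05 over all genes tested). The log2(FPKM + 1) scale understates the change of low genes. The fit was tested on simulated data with equal noise for every gene and no library set apart. That test does not show how the fit behaves with a library like knockout replicate 3. The members and lists were chosen with earlier results of these data known, so no test was made over a list. Per-library values were given for members without overlap or with an unadjusted p under 0.05, for a further set picked by role, and for Gclm, Gsr, Ggt1 and Prdx5, which were added after their values were seen; up to 4 genes with the smallest p were named from each list, and a few items are not reported here. Library weights were estimated gene by gene, an estimator chosen after limma's default had stopped before convergence and its count was seen. Fits that leave out a library kept the same genes, a choice also made after counts were seen.

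Depth was estimated from single-length transcripts of 300 to 3000 nucleotides (GENCODE M21 lengths): at that depth 66.3% to 73.7% of low values came within 0.2 of whole fragments, where evenly spread values give 40%, and at other depths at most 51.3% to 61.5%. It is approximate. Of the Entrez identifiers, 18792 were found in the RefSeq table of GRCm38, which gave names, overlaps and promoter windows; 26 symbols turned into dates were restored with it. Tables and plots were made with Python 3.11.15, numpy 2.4.6, pandas 2.3.3, scipy 1.17.1 and matplotlib 3.10.9. Alternatives covered the pseudocount, the filter, scaling, the trend, library weights, the replicate block and leaving out each library.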

Additional observations from a re-analysis of the deposited data

How the results depend on the processing

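Few genes passed under any setting that used all libraries with equal weight. The count of genes past limma was 9 as reported and 1 with a pseudocount of 0.1 or 0.01, without a filter, with a mean FPKM of at least 5, with median-ratio or quantile scaling and without the trend. With array weights it was 4873 (estimated gene by gene, with knockout replicate 3 at 0.274 and knockout replicate 2 at 2.87) and 1456 (by REML), both estimators having been run and the first chosen after seeing the data, and the cause of that gap was not tested. Leaving out 1 library gave 0 to 3271 genes, the highest without knockout replicate 3. The members past limma numbered 0 as reported, 15 with array weights estimated gene by gene, 5 with those by REML, and 0 to 13 when 1 library was left out. The members higher at an unadjusted limma p under 0.05 were 5 as reported, 9 with median-ratio scaling, 8 with TPM scaling, 14 and 11 with array weights, and 3 to 15 when 1 library was left out. All genes moved with these settings: in either direction 3303 had such a p as reported, 3327 with median-ratio scaling, 3118 with TPM scaling, 6318 and 4241 with array weights, and 2054 to 5424 when 1 library was left out. The lower members were 2 as reported, 5 with array weights estimated gene by gene, and 2 to 3 when 1 library was left out. The member median ranged from 0.14 to 0.34 when 1 library was left out and was 0.42, 0.19 and 0.20 with median-ratio, quantile and TPM scaling.

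With the replicate number as a block, 2 genes and 0 members passed. Same-numbered deviations from the group means correlated at -0.126, -0.0699 and 0.0340 across genes, and only replicate 3 correlated best with its own number. With 3 libraries per group, these correlations cannot show whether the numbers pair the libraries.

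Of the members' log2 fold changes under the alternatives, 583 kept their sign and side of the threshold and 33 moved past it. Another 30 turned their sign, all in 14 members. As reported 0 members passed, and of the 14 G6pdx passed with array weights estimated gene by gene (-0.37, limma adjusted p = 0.0386). Prdx2 turned to -0.18 with quantile scaling and -0.035 with TPM scaling, and spanned -0.028 to 0.074 when 1 library was left out. Keap1 turned to 0.15 with median-ratio and 0.088 with quantile scaling, and spanned -0.020 to 0.030 over the fits without 1 library. Ftl1 turned to -0.13 and -0.034 with array weights and spanned -0.11 to 0.21. Txnrd1 turned to -0.10 and -0.088 with array weights and spanned -0.12 to 0.16. Pgd turned to 0.12 with median-ratio scaling and spanned -0.17 to 0.12. Mt2 turned to 0.039 with median-ratio scaling and spanned -0.45 to 0.20. Prdx4, Sqstm1 and Fth1 turned to 0.057, -0.14 and -0.061 with array weights, and Prdx4 spanned -0.32 to 0.051. Over the fits without 1 library Txnrd2 spanned -0.0083 to 0.37 and Nfe2l2 -0.35 to 0.012. G6pdx turned to 0.0057 with median-ratio scaling, and Taldo1 and Mt1 to -0.026 and -0.031 with quantile scaling. The causes of these turns were not tested.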

Other observations

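Markers of further cell types were read beside the members. The 5 injured tubule markers summed to 495.7 to 1471 FPKM in knockout and 942.6 to 1792 FPKM in floxed libraries, with knockout replicate 3 the highest of its group. The 6 markers of principal and intercalated cells summed to 148.6 to 597.8 FPKM in knockout and 74.97 to 130.7 FPKM in floxed libraries. The 9 erythrocyte markers summed to 58.65, 364.6 and 301.1 FPKM in knockout and 108.3, 134.7 and 272.5 FPKM in floxed replicates 1, 2 and 3, while the red-cell peroxiredoxin Prdx2 stayed within 181.6 to 209.53 FPKM in all 6 libraries. The 6 endothelial markers summed to 50.61 to 69.55 FPKM in knockout and 63.52 to 113.8 FPKM in floxed libraries, the 5 neutrophil markers to 8.35 to 259.4 FPKM in knockout and 55.73 to 386.9 FPKM in floxed libraries, and the 7 T and B cell markers to 19.19 to 28.76 FPKM in knockout and 16.83 to 120 FPKM in floxed libraries. The 4 liver markers, of which Cyp2e1 is also expressed in kidney, summed to 297.5 to 989.5 FPKM in knockout and 191 to 237.4 FPKM in floxed libraries. Cyp2e1 weighed most in this sum (937.35 FPKM in knockout replicate 1). Alb was at or below 2.14 FPKM and Apoa1 at or below 0.74 FPKM in every library. Taken singly, 0 of these markers were higher without overlap.

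Together the 40 members made up 5.78%, 4.68% and 2.81% of all summed FPKM in knockout and 2.19%, 3.36% and 2.55% in floxed replicates 1, 2 and 3, a per-length share in which Gpx3 and the ferritin chains weigh most.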
